A study of Mus musculus with 6 samples.

Results

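The pituitary glycoprotein hormones and the receptors through which the hypothalamus drives them were followed in 6 genes: Cga, Tshb, Lhb, Fshb, Gnrhr and Trhr. These are 6 of the 12393 genes that have a probe set of their own on the array. They were represented by 9 of the 22690 probe sets of an Affymetrix mouse 3' expression array, namely every probe set that the platform annotation assigns to exactly 1 of these symbols. Cga, Tshb, Lhb and Fshb had 1 probe set each, Gnrhr had 3 and Trhr had 2. The rule that picks the probe sets uses names and no measured values, although the set of genes was proposed with earlier results of these data known. The glands were whole pituitaries of C57BL/6J males, 8 to 12 weeks old, either Bmal1-/-, labelled as lacking the clock transcription factor BMAL1, or wild type. All mice were kept in 12 h of light and 12 h of darkness and killed at zeitgeber time 12, when the lights go off. Each array carried RNA pooled from the glands of 3 mice of 1 genotype, and there were 3 arrays labelled Bmal1-/- (replicates 4 to 6) and 3 wild-type arrays (replicates 1 to 3). The labels do not say in which cells Bmal1 is deleted or how.

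Luteinising hormone, follicle-stimulating hormone and thyroid-stimulating hormone are pairs of an alpha subunit, which all of them share and which Cga encodes, and a beta subunit of their own, encoded by Lhb, Fshb and Tshb. Gonadotrophs make the first pair of hormones under gonadotropin-releasing hormone, whose receptor is Gnrhr. Thyrotrophs make thyroid-stimulating hormone under thyrotropin-releasing hormone, whose receptor is Trhr, and thyroid hormone represses both of its subunit genes. Both receptors couple to Gq proteins, phospholipase C and protein kinase C.

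Bmal1 itself, annotated as Arntl, read 114 ± 12.8 on the arrays labelled Bmal1-/- and 43.3 ± 7.29 on the wild-type arrays (SD, n = 3 each), which is a difference of 1.13 on the log2 scale (SE 0.14, adjusted p = 0.000653 in limma). Its transcript was thus higher where the gene is labelled as deleted. The labels do not place its probe set inside or outside the deleted part, so it does not check them. Every direction below is relative to the arrays labelled Bmal1-/-. Arrays of the same genotype correlated at r = 0.980 to 0.986 over the tested probe sets, and arrays of different genotypes at 0.970 to 0.976. The labels give no batch. With 3 arrays a genotype, precision is limited by their number.

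The sequences upstream of Cga, Lhb and Fshb are shown because the fold change of Lhb had the opposite sign to those of Cga and Fshb. Each is the 250 bases before the RefSeq transcription start in GRCm38.p6, read 5′ to 3′ on the gene's own strand. Cga lies at chr4:34893529-34893778 on the plus strand, Lhb at chr7:45420696-45420945 on the plus strand and Fshb at chr2:107059652-107059901 on the minus strand. Capitals mark matches to the motifs searched.
Cga: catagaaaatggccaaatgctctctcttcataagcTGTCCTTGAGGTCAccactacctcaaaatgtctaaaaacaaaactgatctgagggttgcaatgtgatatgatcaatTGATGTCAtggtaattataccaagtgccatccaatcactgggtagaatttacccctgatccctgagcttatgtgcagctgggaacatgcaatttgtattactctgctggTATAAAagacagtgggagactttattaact
Lhb: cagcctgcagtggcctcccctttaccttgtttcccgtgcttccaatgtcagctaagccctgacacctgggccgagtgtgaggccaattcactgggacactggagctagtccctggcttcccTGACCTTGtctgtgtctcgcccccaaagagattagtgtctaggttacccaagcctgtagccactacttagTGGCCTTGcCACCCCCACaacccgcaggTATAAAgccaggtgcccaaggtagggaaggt
Fshb: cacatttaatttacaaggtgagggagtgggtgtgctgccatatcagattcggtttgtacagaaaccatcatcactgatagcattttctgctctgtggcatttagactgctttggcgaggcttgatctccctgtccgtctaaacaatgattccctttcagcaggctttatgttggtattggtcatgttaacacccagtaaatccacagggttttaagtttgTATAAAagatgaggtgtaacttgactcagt

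The motifs were searched on both strands. They were the E-box CACGTG, which BMAL1 and its partner bind, the D-box forms TTATGCAA and TTACGTAA, the site of the gonadotroph factor NR5A1 (TGACCTTG), the sites GCGGGGGCG and CACCCCCAC of EGR1, the factor that relays gonadotropin-releasing hormone to Lhb, the PITX site GGATTA and the cAMP response element TGACGTCA. Forms with 1 open base (TGNCCTTG and TGANGTCA) and the TATA box TATAAA were added after the sequences had been seen. The Lhb window held TGACCTTG 129 bases before the start, as 1.33% of all 32851 promoter windows of this length do. It held CACCCCCAC 50 bases before the start, as 1.80% of windows do. The relaxed NR5A1 form, found in 5.53% of windows, matched Lhb at 129 (the same site) and at 59 bases, and Cga at 215 bases. The relaxed cAMP element, found in 7.49% of windows, matched Cga at 209 bases, where it overlaps the NR5A1 form, and at 139 bases. TATAAA, found in 12.4% of windows, lay 30 bases before the start in Cga and Fshb and 31 in Lhb, and it was the only motif matched in Fshb. The E-box letters, found in 6.02% of windows, were in none of the 5 member windows, those of Tshb and Gnrhr included. The same held for TTATGCAA (0.694% of windows), TTACGTAA (0.113%), GCGGGGGCG (2.57%), GGATTA (6.25%) and TGACGTCA (1.55%). The sequence table used here has no entry matched to Trhr.

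The alpha subunit gene was lower on the arrays labelled Bmal1-/-. Cga (probe set 1418549_at) read 8393, 8774 and 8112 in linear MAS5 intensity on the arrays labelled Bmal1-/-, against 10248, 9790 and 11431 on the wild-type arrays. The genotypes did not overlap, and the lowest wild-type array lay above the highest array labelled Bmal1-/-. The mean was 8426 ± 332 on the arrays labelled Bmal1-/- and 10490 ± 847 on the wild-type arrays (SD, n = 3 each), so that the arrays labelled Bmal1-/- stood at 80.3% of wild type. On the log2(intensity + 16) scale, on which all fold changes are given, Cga fell by 0.31 (SE 0.07, 95% interval -0.46 to -0.17, limma adjusted p = 0.0190). It was the only one of the 8 tested member probe sets past the adjusted threshold of 0.05, and none was called higher. Of the 13576 tested probe sets 5.54% were called, 2.78% lower and 2.75% higher on the arrays labelled Bmal1-/-. In whole glands, fewer cells of a type and less RNA per cell cannot be told apart.

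The Cga call depended on the setting. It was lost when dim probe sets were kept in (adjusted p = 0.0918), without the intensity trend of the variance (0.139), and without wild-type replicate 3 (0.0641) or replicate 4 (0.0670) or 6 (0.0824) labelled Bmal1-/-, with a range of 0.00739 to 0.664 over all 16 alternatives. Bright probe sets as a group also read lower on the arrays labelled Bmal1-/-: of the 100 brightest outside the hormone genes, 87 had a log2 fold change below 0, with a median of -0.11, against 51.6% below 0 and a median of -0.01 over all tested probe sets. With the arrays set to equal medians of those 100, Cga stood at -0.22 (adjusted p = 0.0300). Under quantile normalization it had -0.04 (adjusted p = 0.664). Cga ranked 8 among 22626 probe sets in mean level. Quantile normalization gives a rank the same value on every array, and the part of this in the loss of the call was not tested.

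Neither gonadotropin beta subunit gene passed the threshold, and their fold changes had opposite signs; the difference between them was not tested. Fshb, which encodes the beta subunit of follicle-stimulating hormone, read 2246, 2370 and 2116 on the arrays labelled Bmal1-/-, against 2720, 2376 and 3128 on the wild-type arrays. The genotypes did not overlap, but wild-type replicate 2 lay only just above replicate 5 labelled Bmal1-/-. It averaged 2244 ± 127 on the arrays labelled Bmal1-/- and 2742 ± 376 on the wild-type arrays. Its log2 fold change was -0.28 (SE 0.09, 95% interval -0.48 to -0.08), close in size to that of Cga and not past the threshold (limma adjusted p = 0.0945). It passed in 1 of the 16 alternatives, without wild-type replicate 2, at -0.38 (adjusted p = 0.0168). With the arrays set to equal medians of the 100 bright probe sets it had -0.19 (adjusted p = 0.168). Under quantile normalization it had -0.23 (adjusted p = 0.165).

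Lhb, which encodes the beta subunit of luteinising hormone, read 4806, 4480 and 4781 on the arrays labelled Bmal1-/-, against 3750, 3976 and 4781 on the wild-type arrays. Wild-type replicate 3 was as high as the arrays labelled Bmal1-/-, and the other wild-type arrays were below all of them. Lhb averaged 4689 ± 181 on the arrays labelled Bmal1-/- and 4169 ± 542 on the wild-type arrays. Its log2 fold change of 0.18 (SE 0.08, 95% interval 0.00 to 0.36) did not pass (limma adjusted p = 0.250). Over the 16 alternatives its log2 fold change was 0.10 to 0.28 and its adjusted p 0.0512 to 0.550.

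Tshb, which encodes the beta subunit of thyroid-stimulating hormone, read 3756, 4102 and 3387 on the arrays labelled Bmal1-/-, against 3638, 3857 and 4048 on the wild-type arrays. The genotypes overlapped fully, with the highest and the lowest array both labelled Bmal1-/-. Tshb averaged 3748 ± 357 on the arrays labelled Bmal1-/- and 3848 ± 205 on the wild-type arrays, with a log2 fold change of -0.04 (SE 0.08; in limma, adjusted p = 0.814). The 95% interval of -0.21 to 0.12 corresponds to 0.867 to 1.09 times the wild-type level. The direction turned under both settings that rescale the bright range and without replicate 6 labelled Bmal1-/-.

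**Figure D1:**
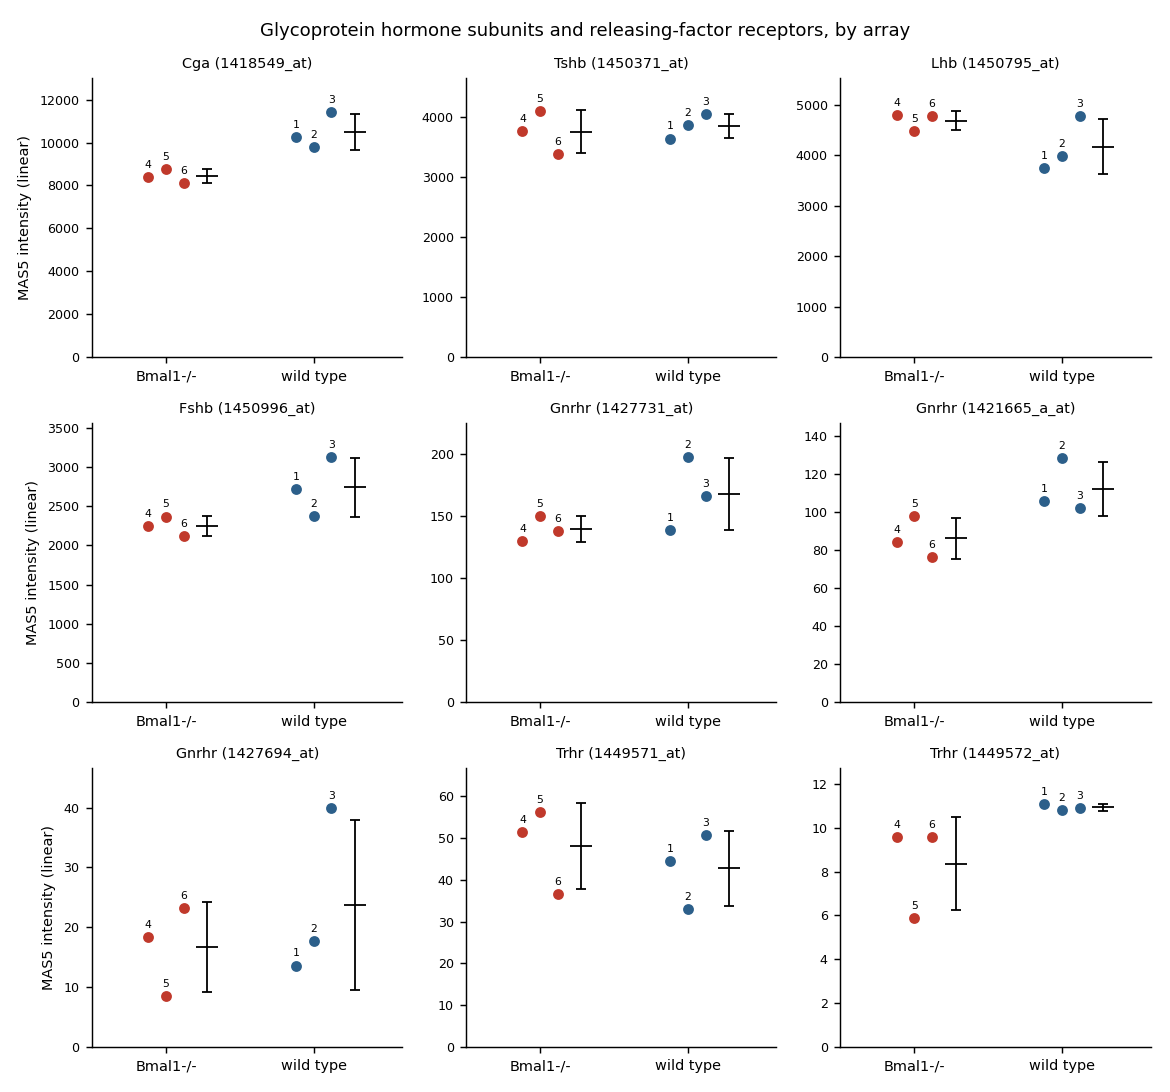
Linear MAS5 intensity of the 9 probe sets on each array (vertical axes start at 0; red, arrays labelled Bmal1-/-; blue, wild-type arrays; digits, replicate numbers; black, mean ± SD, n = 3). Cga has no overlap, at 8112 to 8774 on the arrays labelled Bmal1-/- and 9790 to 11431 on the wild-type arrays, while Tshb, Lhb and Trhr (1449571_at) overlap.

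Whether the shared alpha subunit and a beta subunit changed unequally was tested on the difference of their log2 values within each array. The Cga minus Lhb difference was 0.49 lower on the arrays labelled Bmal1-/- (-0.49), with an SD of 0.11 on those arrays and 0.10 on the wild-type arrays and no overlap between genotypes. The Cga minus Tshb difference changed by -0.27, with SDs of 0.08 on the arrays labelled Bmal1-/- and 0.09 on the wild-type arrays and again no overlap. Both differences gave an exact two-sided permutation p = 0.1, the smallest that 3 arrays against 3 allow, or 0.15 after adjustment over the 3 pairs, so this permutation test cannot reach 0.05 with 3 arrays a genotype. The Cga minus Fshb difference changed by -0.03, with SDs of 0.03 on the arrays labelled Bmal1-/- and 0.09 on the wild-type arrays (exact permutation p = 0.8). On the deposited scale, the difference from Cga thus exceeded the spread of the arrays for Lhb and Tshb but not for Fshb. Under quantile normalization that order did not hold, with Cga minus Tshb at -0.08 (exact permutation p = 0.4), Cga minus Fshb at 0.19 (exact permutation p = 0.3) and Cga minus Lhb at -0.33 (exact permutation p = 0.1).

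Within a genotype the subunits varied together in part. Wild-type replicate 3 was the highest wild-type array for all 4, at 0.13 (Cga), 0.07 (Tshb), 0.20 (Lhb) and 0.20 (Fshb) above its genotype's mean on the log2 scale. Of the arrays labelled Bmal1-/-, replicate 5 was highest for Cga (0.06), Tshb (0.13) and Fshb (0.08) and lowest for Lhb (-0.06). Wild-type replicate 3 also had the highest median log2 level of the 100 bright probe sets, 12.21 against 12.06 to 12.17 on the other 5 arrays. Without that array Cga had -0.25 (limma adjusted p = 0.0641) and Fshb -0.18 (adjusted p = 0.278).

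The receptor for gonadotropin-releasing hormone was measured far below the hormone genes, and its 3 probe sets each had a log2 fold change below 0. The brightest, 1427731_at, read 130, 151 and 138 on the arrays labelled Bmal1-/-, against 139, 198 and 167 on the wild-type arrays. Wild-type replicate 1 lay among the arrays labelled Bmal1-/-. Its log2 fold change was -0.23 (SE 0.13, limma adjusted p = 0.315), with -0.35 when wild-type replicate 1 was left out and -0.12 when wild-type replicate 2 was. The second, 1421665_a_at, read 84.2, 97.9 and 76.3 on the arrays labelled Bmal1-/-, against 106, 128 and 102 on the wild-type arrays. Here the genotypes did not overlap, and the means were 86.1 ± 10.9 on the arrays labelled Bmal1-/- and 112 ± 14.1 on the wild-type arrays. Its log2 fold change was -0.33 (SE 0.13, 95% interval -0.61 to -0.05, limma adjusted p = 0.162).

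The third Gnrhr probe set, 1427694_at, was dim and scattered. It read 18.3, 8.5 and 23.2 on the arrays labelled Bmal1-/-, against 13.6, 17.7 and 40 on the wild-type arrays, with full overlap. Its log2 fold change of -0.25 (SE 0.25; in limma, adjusted p = 0.608) moved with single arrays, to 0.02 without wild-type replicate 3, -0.06 without replicate 5 labelled Bmal1-/- and -0.44 without wild-type replicate 1. With the 3 probe sets averaged, a setting added after the values had been seen, the log2 fold change of Gnrhr was -0.27 (SE 0.12, 95% interval -0.53 to -0.01, limma adjusted p = 0.203). Gnrhr therefore did not pass under any setting tried, although the averaged interval lies below 0.

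Trhr, the thyrotropin-releasing hormone receptor, did not pass the threshold in either probe set. Its brighter probe set, 1449571_at, read 51.4, 56.2 and 36.5 on the arrays labelled Bmal1-/-, against 44.4, 33.1 and 50.7 on the wild-type arrays. The genotypes overlapped fully, and the log2 fold change was 0.12 (SE 0.17, limma adjusted p = 0.731). It was 0.00 without wild-type replicate 2, 0.03 without replicate 5 labelled Bmal1-/-, 0.22 without wild-type replicate 3 and 0.26 without replicate 6 labelled Bmal1-/-. The 95% interval of -0.24 to 0.49 leaves changes of 0.845 to 1.40 times the wild-type level. The other probe set, 1449572_at, fell outside the 60% of probe sets tested, with 9.6, 5.9 and 9.6 on the arrays labelled Bmal1-/-, against 11.1, 10.8 and 10.9 on the wild-type arrays. These values did not overlap (exact two-sided permutation p = 0.1, the smallest possible with n = 3 each) but lie near the bottom of the measured range, and with no filter the log2 fold change was -0.15 (SE 0.14, limma adjusted p = 0.679).

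**Figure D2:**
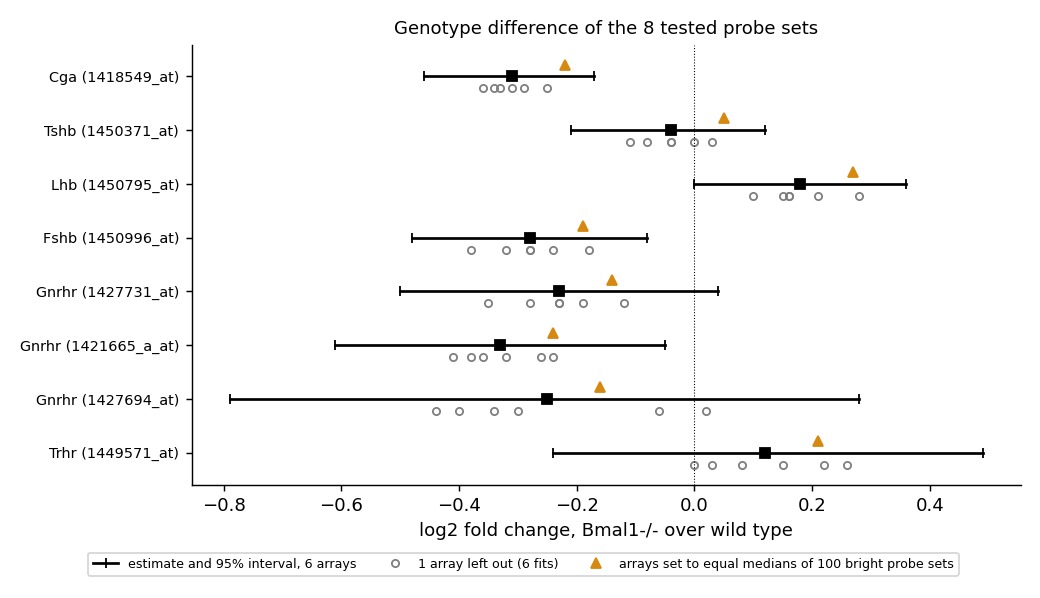
Log2 fold change, Bmal1-/- over wild type, of the 8 tested probe sets, with the 95% interval from limma (black), the 6 fits that leave out 1 array (grey circles) and the value with arrays set to equal medians of 100 bright probe sets (orange). Cga stays between -0.36 and -0.22 and Lhb between 0.10 and 0.28 in the values plotted, while Tshb lies on both sides of 0. Values under quantile normalization, where Cga had -0.04, are not plotted.

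Of the 8 tested member probe sets, 3 had genotypes that did not overlap, all lower on the arrays labelled Bmal1-/- (Cga, Fshb and Gnrhr 1421665_a_at). Over all tested probe sets the genotypes did not overlap at 25.9%, and at 13.3% with the arrays labelled Bmal1-/- lower. The wild-type arrays scattered more than those labelled Bmal1-/- for Lhb (coefficient of variation 3.87% on the arrays labelled Bmal1-/- and 13.0% on the wild-type arrays) and for Fshb (5.64% on the arrays labelled Bmal1-/- and 13.7% on the wild-type arrays). In the same order, Cga had 3.94% and 8.07%, Gnrhr 1427731_at 7.48% and 17.4%, and Gnrhr 1427694_at 44.9% and 59.8%. Gnrhr 1421665_a_at (12.7% and 12.5%) and Trhr 1449571_at (21.4% and 20.9%) scattered about equally. For Tshb the arrays labelled Bmal1-/- scattered more, at 9.54% against 5.33% on the wild-type arrays. These differences in scatter were not tested.

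The pituitary origin was evident from the hormone genes of the other lineages, which were among the brightest probe sets. Markers of those lineages moved with Cga in part. Both somatotroph markers fell, and their summed level was 15835 to 17129 on the arrays labelled Bmal1-/- and 18786 to 21066 on the wild-type arrays. Growth hormone (Gh), which made up most of those sums, had -0.27 on the log2 scale (limma adjusted p = 0.0217). Ghrhr, which encodes the receptor for its releasing hormone, had -0.66 (adjusted p = 0.00553). The lactotroph marker Prl had -0.11 (adjusted p = 0.336), at 12323 to 13374 on the arrays labelled Bmal1-/- and 13003 to 14923 on the wild-type arrays. The 100 brightest probe sets outside the hormone genes had the same median, -0.11. The part of that bright-range shift in the values of Gh, Prl and the corticotroph hormone gene Pomc was not tested. None of the 3 corticotroph markers passed, with Pomc at -0.24 (adjusted p = 0.0731), Tbx19 at -0.18 (adjusted p = 0.414) and Crhr1 at 0.12 (adjusted p = 0.708). Their sums, which were mostly Pomc, were 8795 to 9904 on the arrays labelled Bmal1-/- and 9958 to 11711 on the wild-type arrays. Of 4 macrophage markers 1 fell (C1qa, -0.48, adjusted p = 0.0280), with sums of 256 to 291 on the arrays labelled Bmal1-/- and 357 to 382 on the wild-type arrays. The other macrophage markers did not pass, with -0.43 (Csf1r, adjusted p = 0.0639), -0.22 (C1qb) and -0.08 (Cd68). The further probe sets of Csf1r had -0.17 and -0.07, and those of C1qb -0.51 and -0.46. Of 4 endothelial markers 1 rose (Plvap, 0.40, adjusted p = 0.0287), with sums of 438 to 480 on the arrays labelled Bmal1-/- and 358 to 410 on the wild-type arrays. Most of those sums was Plvap itself, and the other markers had -0.38 (Kdr), -0.10 (Pecam1) and 0.06 (Cdh5), with a list median of -0.02. The part of cell composition in the Cga result was not tested.

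The 4 folliculostellate markers had sums of 180 to 205 on the arrays labelled Bmal1-/- and 202 to 242 on the wild-type arrays, and neither of the 2 tested passed, with Anxa1 at -0.58 (adjusted p = 0.0899, no overlap) and Sox2 at 0.05 (adjusted p = 0.839). The defining marker S100b was near the bottom of the range, at 4.13 ± 3.38 on the arrays labelled Bmal1-/- and 12.1 ± 1.5 on the wild-type arrays. Of the markers of posterior lobe and hypothalamus, Mbp of myelin rose (0.52, adjusted p = 0.0210), and Oxt, the oxytocin gene, averaged 94.3 ± 11.5 on the arrays labelled Bmal1-/- and 151 ± 39 on the wild-type arrays (-0.57, adjusted p = 0.0565) with no overlap. The list's sums overlapped, at 235 to 254 on the arrays labelled Bmal1-/- and 212 to 313 on the wild-type arrays. Avp, the vasopressin gene of its axons, averaged 4.5 on the arrays labelled Bmal1-/- and 9.33 on the wild-type arrays. The melatonin receptor Mtnr1a, a marker of the pars tuberalis, whose thyrotrophs also make Cga and Tshb, read 1.0 to 6.3 on the arrays labelled Bmal1-/- and 0.3 to 12.5 on the wild-type arrays, and was not tested. The melanotroph marker Pax7 was likewise untested, at 4.0 to 14.4 on the arrays labelled Bmal1-/- and 0.8 to 16.3 on the wild-type arrays. The 2 blood markers on the array had sums of 59.8 to 108 on the arrays labelled Bmal1-/- and 68.1 to 117 on the wild-type arrays.

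Of 15 listed transcriptional regulators of gonadotrophs, 11 were on the array and 9 were tested, 1 rose and none fell, with a list median of 0.04, against 5.66% of 8033 genes called (3% higher and 2.66% lower) and a median of 0.00. Lhx3, a homeobox factor needed for most anterior lobe lineages, rose to 570 ± 7.84 on the arrays labelled Bmal1-/-, against 465 ± 25.2 on the wild-type arrays (log2 fold change 0.29, SE 0.08, limma adjusted p = 0.0484). That call was lost without any 1 of the 6 arrays (adjusted p up to 0.147). The other Lhx3 probe set had 0.26 and did not pass (adjusted p = 0.267). Nr5a1, the gonadotroph nuclear receptor whose site the Lhb window holds, read 89.3 ± 14 on the arrays labelled Bmal1-/- and 87.5 ± 4.85 on the wild-type arrays, with a log2 fold change of 0.02. Egr1 read 359, 1330 and 307 on the arrays labelled Bmal1-/-, against 357, 1108 and 967 on the wild-type arrays. It varied several-fold within each genotype, and its log2 fold change of -0.45 (SE 0.48, adjusted p = 0.648) could not be told from 0. Replicate 5, which had the highest Egr1, had the lowest Lhb of the arrays labelled Bmal1-/-. Of the wild-type arrays, replicate 1 had both the lowest Egr1 and the lowest Lhb. The relation between the 2 genes was not tested.

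Of the tested genes in these lists, those with the largest fold changes were in the thyrotroph list (Dio2, Thra and Tef). Of 18 listed genes 11 were tested, 2 rose and 1 fell, which is 27.3% against 5.66% of all genes (3% higher and 2.66% lower), and the list median was 0.03. The list was chosen with earlier results of these data known, so this share is a description and not a test. Dio2, the deiodinase that converts thyroxine to active triiodothyronine, read 420, 452 and 442 on the arrays labelled Bmal1-/-, against 169, 220 and 196 on the wild-type arrays. It rose by 1.11 (SE 0.10, limma adjusted p = 6.94e-05), and its other probe sets had 0.54 and 0.89. Of its 3 tested probe sets 2 passed the threshold. Tef, the thyrotroph embryonic factor, a D-box factor known to bind the Tshb promoter, read 195, 202 and 184 on the arrays labelled Bmal1-/-, against 324, 349 and 420 on the wild-type arrays. It fell by 0.85 (SE 0.10, adjusted p = 0.000737), and its other tested probe set had -0.91. These genotypes stood far apart, and the calls of Dio2 and Tef held under all 16 alternatives.

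Thra, a thyroid hormone receptor gene, read 338, 319 and 311 on the arrays labelled Bmal1-/-, against 160, 167 and 145 on the wild-type arrays, with a log2 fold change of 0.97 (SE 0.09; in limma, adjusted p = 9.8e-05). Its other probe set had 0.17 and did not pass (adjusted p = 0.592), so the 2 disagree. Thra overlaps the clock gene Nr1d1 in the RefSeq gene table, and the annotation used here does not say which part of Thra each probe set reads. Thrb, the receptor that mediates feedback on Tshb, read 27.3 ± 6.73 on the arrays labelled Bmal1-/- and 26.3 ± 5.38 on the wild-type arrays, with a log2 fold change of 0.03. Its partner receptor Rxrg had -0.26 (adjusted p = 0.191).

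Downstream of both receptors, 27 of 38 listed Gq signalling genes were tested, 1 rose and 1 fell, and the list median was -0.07. The called share of 7.41% was near the 5.66% of all genes. Rgs4, which shortens Gq signalling, rose to 246 ± 20.7 on the arrays labelled Bmal1-/-, against 139 ± 26.6 on the wild-type arrays (log2 fold change 0.77, SE 0.13, limma adjusted p = 0.00450). Its other 2 probe sets had -0.02 and 0.36 and did not pass. Prkcb, a protein kinase C gene, fell to 84.7 ± 4.27 on the arrays labelled Bmal1-/-, against 130 ± 10 on the wild-type arrays (-0.53, SE 0.11, adjusted p = 0.0182). Its other probe set had -0.43 (adjusted p = 0.188), and the call was lost without wild-type replicate 3 (0.0762) or replicate 4 (0.0637) or 5 (0.0588) labelled Bmal1-/-. Gna11, a G protein of this pathway, had 0.04.

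None of 13 tested genes of the activin, inhibin and follistatin pathway, which sets Fshb against Lhb in gonadotrophs, passed limma's adjusted threshold. With each gene read at its brightest probe set, the smallest p-values were at the activin receptor gene Acvr1b (0.28, adjusted p = 0.157) and at Inhbb, which encodes the activin and inhibin beta B subunit (0.30, adjusted p = 0.208). The other Inhbb probe set had -0.26, so its direction was not settled. Over all probe sets of the list the smallest adjusted p was 0.0681, at a dimmer one of Smad4, the shared signal transducer (0.31), whose brightest had 0.15 (adjusted p = 0.4). The remaining Smad4 probe set had -0.05. Inha, the inhibin alpha subunit, had -0.25 (adjusted p = 0.261), and the list median was -0.06. Of 19 tested genes for folding, glycosylating and storing the subunits, only St6gal1, which adds sialic acid to N-glycans, rose (0.36, SE 0.09, adjusted p = 0.0325), and its share of 5.26% called was near the 5.66% of all genes. Its other probe set had 0.04, and the call was lost without any 1 array but wild-type replicate 2 (adjusted p up to 0.117). P4hb, the protein disulfide isomerase that folds subunits, had -0.21 (adjusted p = 0.113), and Chgb, a granule protein, -0.03.

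**Figure D3:**
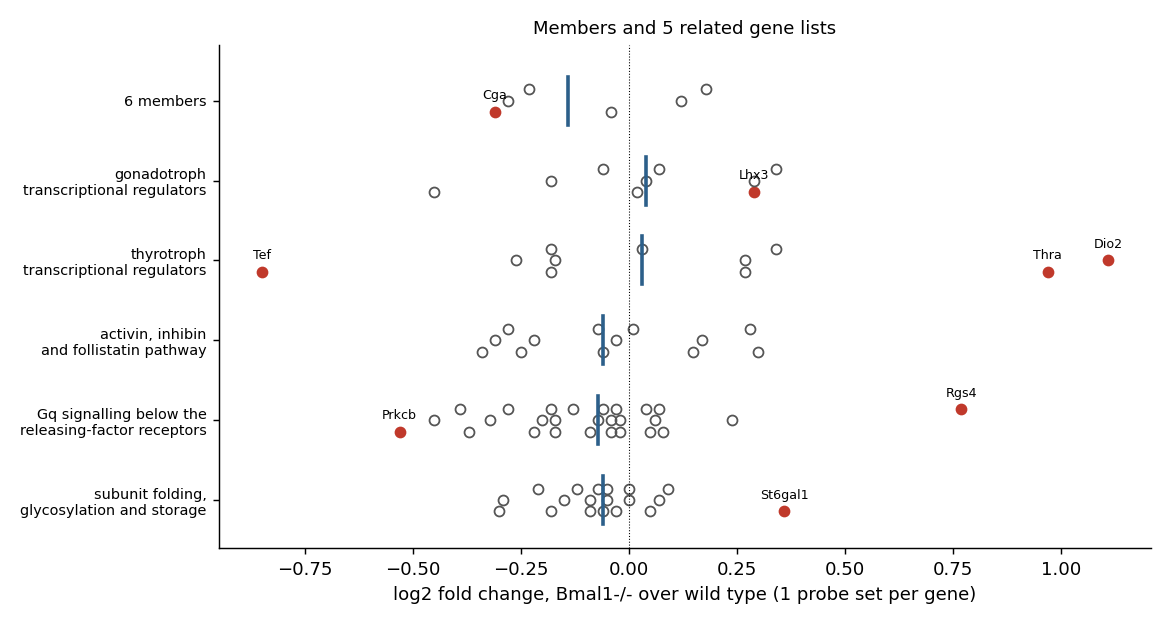
Log2 fold change, Bmal1-/- over wild type, of the 6 members and of the tested genes of 5 related lists (1 probe set per gene; red, limma adjusted p under 0.05; open, not passed; blue bar, list median). The list medians lie between -0.14 and 0.04, and Dio2 (1.11), Thra (0.97), Rgs4 (0.77) and Tef (-0.85) stand outside the range of the members.

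The last list, relatives of the subunits with their ligands and other receptors, had 9 genes on the array and none bright enough to be tested. Gpha2 was singled out after its values had been seen. It encodes the second glycoprotein hormone alpha subunit, which pairs with GPHB5 as thyrostimulin. It read 32.0, 26.0 and 21.6 on the arrays labelled Bmal1-/-, against 3.0, 2.6 and 3.1 on the wild-type arrays. The genotypes stood well apart, though even the higher values were near or below the median intensity of the arrays, 31.7 to 34.3. With no filter its log2 fold change was 1.16 (SE 0.15, limma adjusted p = 0.00801 over 22626 probe sets), and 0.0528 without replicate 5 labelled Bmal1-/-, the one omission of 6 that ended the call. With no filter, 330 probe sets were called. Trh, the gene of the releasing factor itself, averaged 1.27 on the arrays labelled Bmal1-/- and 6.00 on the wild-type arrays, which is at the bottom of the measured range.

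**Figure D4:**
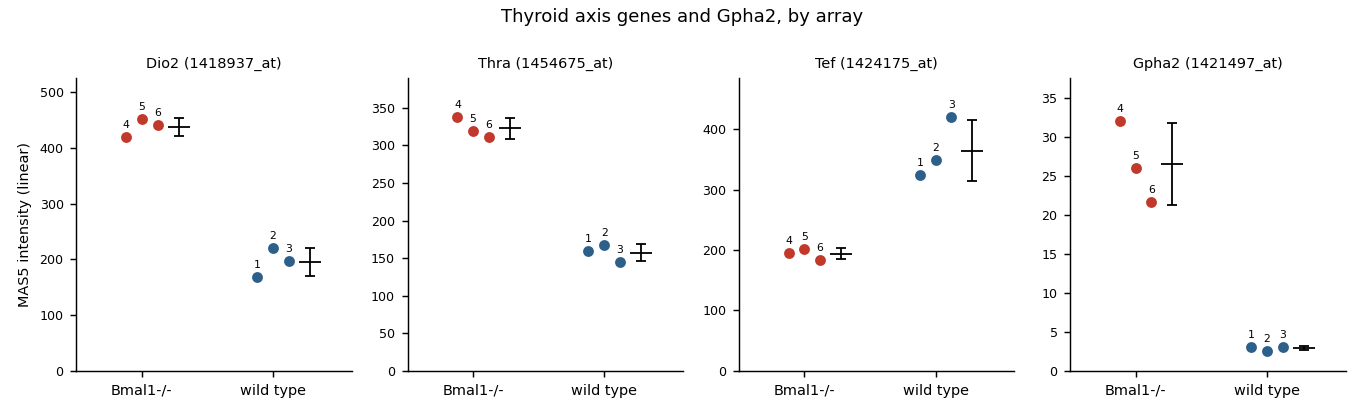
Linear MAS5 intensity of Dio2, Thra, Tef and Gpha2 on each array (vertical axes start at 0; red, arrays labelled Bmal1-/-; blue, wild-type arrays; digits, replicate numbers; black, mean ± SD, n = 3). In each panel the genotypes do not overlap, and Gpha2 lies at 21.6 to 32.0 on the arrays labelled Bmal1-/-, against 2.6 to 3.1 on the wild-type arrays.

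As a description, the tested genes whose levels followed each member most closely over the 6 arrays were listed by Pearson's r on the log2 scale, without a test. Cga was followed by Ppfibp2 (0.994), Inmt (0.990) and Acadl (0.989). Fshb was followed by the mitochondrial gene ND5 (0.993), Dnajc9 (0.988) and Oxnad1 (0.987), Lhb by Itgb1 (0.990), Tubgcp4 (0.987) and Rtf2 (0.987), and Tshb by Fbxo3 (0.992), Oaf (0.980) and Fhl2 (0.976). For Gnrhr they were Pdpn (0.995), Gria2 (0.985) and Kdelr2 (0.972), and for Trhr Idua (0.990), Hacd1 (0.986) and Plaat3 (0.986). Of 8032 other genes, 66 exceeded 0.95 with Cga, 36 with Fshb, 18 with Trhr, 12 with Lhb, 9 with Tshb and 8 with Gnrhr. Each r was taken over both genotypes together, so a genotype difference shared by both genes adds to it. None of the 6 members was among the 3 closest to another.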

How the data were processed

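Pituitary RNA was measured on 6 arrays. Per the submitters' processing notes, the authors' deposited values are MAS5 intensities, linear in scale, with a single value for each probe set on each array. Its version, scaling target and detection calls were not stated in these sources. The mean after trimming 2% from each end was 100.0 on every array. MAS5 subtracts a mismatch background, so dim values are noisy.

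The 64 array controls were left out. Genes were named from the platform annotation, using the 20380 other probe sets that name 1 gene. Values were taken as log2(intensity + 16), which understates changes of dim genes. Testing was limited to the brightest 60% by mean over all arrays, and used limma 3.58.1 in R 4.3.3 (lmFit, eBayes with intensity trend, two-sided), with Benjamini-Hochberg adjustment over 13576 probe sets. The procedure was tested on simulated data in which probe sets varied independently, so that test does not cover a shift shared by bright probe sets. Gene lists were described by counts and medians, with the brightest tested probe set per gene. Members, lists and tests were chosen with earlier results of these data known. Of each pathway list the text names up to 4 genes past the threshold by size, otherwise the 2 with the smallest p, and other genes were chosen after their values were seen. Promoter sequences are from RefSeq (GRCm38.p6), matched by symbol for 5 of 6 members.

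The alternatives were 2 other pseudocounts (1 and 64), quantile normalization, equal medians of the tested or of 100 bright probe sets, other filters (none, or the top 40%), eBayes without trend or with robust estimation, array weights, and each array left out.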

Additional observations from a re-analysis of the deposited data

How the results depend on the processing

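Of 8 tested member probe sets, those of Lhb and the 2 brighter ones of Gnrhr kept their direction and their side of the threshold under every alternative run for them. Trhr never passed, and ranged from 0.00 to 0.26 with 1 array left out. Cga lost its call when no probe set was filtered out (-0.31, adjusted p = 0.0918), without the variance trend (-0.31, 0.139) and under quantile normalization (-0.04, 0.664), and ranged from -0.36 to -0.25 with 1 array left out (adjusted p = 0.00739 to 0.0824). Tshb turned to 0.03 under quantile normalization and to 0.05 with equal medians of 100 bright probe sets, and ranged from -0.11 to 0.03 with 1 array left out. With 1 array left out Fshb ranged from -0.38 to -0.18 (adjusted p = 0.0168 to 0.278) and Gnrhr 1427694_at from -0.44 to 0.02. The Cga minus Fshb difference was 0.19 under quantile normalization and ranged from -0.07 to 0.02 with 1 array left out. The cause of these shifts was not tested. The 752 called probe sets became 330 with no filter, 407 without the variance trend, and 312 (without wild-type replicate 3) to 939 (without wild-type replicate 2) with 1 array left out. Of the 752, 50.3% were lower on the arrays labelled Bmal1-/-, against 23.6% of 1009 with equal medians of 100 bright probe sets. No paired analysis was possible because the labels number the arrays 4 to 6 in Bmal1-/- and 1 to 3 in wild type, with no shared number. Gnrhr 1427694_at and Trhr were not among the top 40% and have no value there.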
